A study of Mus musculus with 9 samples.

Results

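Transcripts of the small leucine-rich proteoglycans (SLRPs) were examined in control MC3T3 osteoblasts, in SB216763-treated MC3T3 osteoblasts, and in mouse pulmonary ECs, 3 libraries from each source. The 10 genes Dcn, Bgn, Fmod, Lum, Ogn, Omd, Aspn, Prelp, Podn, and Kera were taken by name from the 50686 genes of the count table. MC3T3-E1 is a clonal mouse osteoblast line, and the GSK3-inhibiting small molecule SB216763 was given at 10 μM for 14 days. The control osteoblasts carry the treatment entry control, and the ECs the entry none. The time in culture of the control osteoblasts is not given in the sources used here, and the ECs were isolated by FACS. The sources do not say whether replicates were separate cultures or animals. P-values thus measure the spread between these libraries, pooled over the 3 groups, which may be technical.

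SLRPs are secreted proteins with a core of leucine-rich repeats that bind collagen fibrils and set their spacing and diameter. Many carry glycosaminoglycan chains, chondroitin or dermatan sulfate in class I (decorin, biglycan) and keratan sulfate in class II (fibromodulin, lumican, keratocan, osteomodulin). Several also bind TGF-β family ligands, and biglycan, decorin, and osteomodulin are known components of the bone matrix that osteoblasts lay down.

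The treated osteoblasts had far less Fmod, Aspn, and Omd transcript than the controls, while Bgn, Dcn, Ogn, and Prelp fell only slightly and Lum rose. Each of these genes was far lower in ECs than in either osteoblast group. Levels are given as CPM, the counts of a gene scaled to a common library size after TMM normalization. Tests are the quasi-likelihood test of edgeR, run over 15531 genes and adjusted by Benjamini-Hochberg (FDR). Of the 10 genes, 9 passed the filter on low counts and were tested, and Kera did not. A 4-fold decrease (log2 fold change of at least 2 at an FDR under 0.01) after treatment was called for 3 of these 9, against 5.84% of all genes tested, and a 4-fold increase for 0 of 9, against 3.81%. At an FDR under 0.01 alone, 8 were lower, against 32.0% of all genes, and 1 was higher, against 32.9%. With libraries scaled by their totals only, 5 in place of 8 were lower, since Dcn, Bgn, and Ogn no longer passed. For each of the 9 genes the treated and control libraries did not overlap, which also held for 73.2% of all genes tested.

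Library depth ran from 30990107 to 68946333 counts, so that 3 counts, taken as the smallest level that can be shown, corresponded to between 0.0473 and 0.104 CPM (counting error only). The 9 endothelial markers checked (such as Cdh5 and Pecam1) summed to between 6810.5 and 6976 CPM in ECs and to between 3.89 and 5.50 CPM in the osteoblast libraries. The 8 osteoblast markers summed to 20096 to 28692 CPM in control libraries, 2831 to 2981 CPM in treated ones, and 29.1 to 38.5 CPM in ECs, where Ibsp, Bglap, and Bglap2 had at most 3 counts per library. Col1a1 made up most of that sum (24511 CPM in the controls and 2732 CPM after treatment on average). After treatment, 4 of the 8 were at least 4-fold lower, against 5.84% of all genes tested. Runx2 fell by 0.44 on the log2 scale, and Phex and Bglap2 had log2 fold changes of -0.46 and 0.29 that did not pass an FDR of 0.01. Fibroblast and mural markers, of 8 genes, were at 3161 to 3309 CPM, 964 to 976 CPM, and 40.9 to 42.4 CPM in the same groups, and Thy1 and Cspg4 had at most 3 counts in any EC library. The lower sum after treatment was mostly Acta2 (2915 to 144 CPM), and Cspg4 also fell (33.2 to 3.14 CPM). These 2 of the 6 tested were at least 4-fold lower, against 5.84% of all genes tested. Pdgfrb (254 to 746 CPM), Pdgfra (33.3 to 67.0 CPM), and Des (8.02 to 9.72 CPM) rose, and Myh11 did not pass an FDR of 0.01. The median log2 fold change of the 6 was 0.34. Of the blood cell markers, Cd68 was at 46.6 CPM in ECs, while Ptprc had 3, 6, and 1 counts there and Cd79a 2, 8, and 9. Adgre1 had 1, 1, and 2 counts in ECs, Itgam 3, 0, and 0, and Cd3e 0 in each library. Epithelial markers summed to at most 0.313 CPM in any library. The part of such cells in the EC values of the SLRPs was not tested, and in bulk libraries fewer cells of a type and less RNA per cell cannot be told apart.

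**Figure D1:**
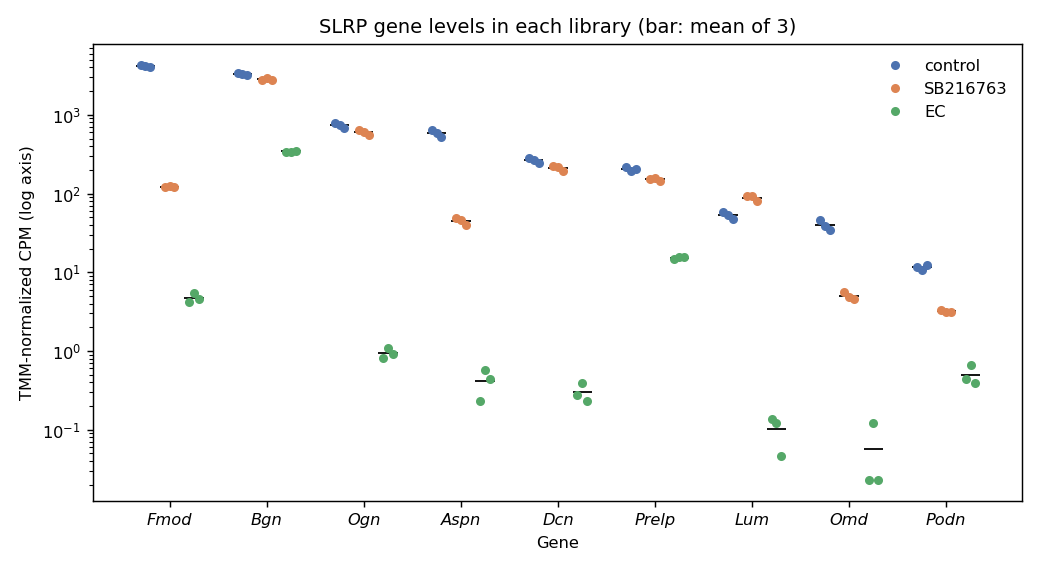
TMM-normalized CPM on a log axis for the 9 SLRP genes tested, ordered by level in the controls, with one point per library (3 control, 3 SB216763, 3 EC) and a bar at the mean of each group. The treated points lie far below the controls for Fmod, Aspn, and Omd, close below them for Bgn, Ogn, Dcn, and Prelp, and above them for Lum, and each EC point lies below all osteoblast points of its gene.

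The SLRP genes stand in groups on the chromosomes (coordinates from GENCODE M21 on GRCm38). Prelp (chromosome 1, 133910304 to 133921414) is separated from Fmod (134037254 to 134048277) by 115839 bases. Dcn (chromosome 10, 97479609 to 97518143), Lum (97565128 to 97572703), and Kera (97606879 to 97613692) follow each other. Aspn (chromosome 13, 49544443 to 49567565), Omd (49582462 to 49592822), and Ogn (49608046 to 49624501) lie in a row with gaps of 14896 and 15223 bases. Podn is at 108014791 to 108096445 on chromosome 4 and Bgn at 73483602 to 73495933 on chromosome X.

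The 250 bases before the start site are shown for Fmod, Aspn, and Omd, which fell most, for Ogn, the neighbor of Aspn and Omd that fell little, and for Bgn, the most abundant SLRP after treatment. The sequences are from RefSeq on GRCm38.p6 and lie on the plus strand at chr1:134037004-134037253 (Fmod), chr13:49544193-49544442 (Aspn), chr13:49582212-49582461 (Omd), chr13:49607765-49608014 (Ogn), and chrX:73483351-73483600 (Bgn). Capitals mark matches, on either strand, to the letters CTTTGAA or CTTTGAT or CTTTGTA or CTTTGTT for TCF/LEF, the DNA-binding partners of β-catenin, to TGTGGT or TGCGGT for RUNX, or to TATAAA, the TATA box.
Fmod: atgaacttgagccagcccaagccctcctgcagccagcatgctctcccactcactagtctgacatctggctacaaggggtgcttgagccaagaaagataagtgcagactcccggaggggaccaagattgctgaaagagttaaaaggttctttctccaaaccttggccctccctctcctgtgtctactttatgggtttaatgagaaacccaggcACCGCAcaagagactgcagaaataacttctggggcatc
Aspn: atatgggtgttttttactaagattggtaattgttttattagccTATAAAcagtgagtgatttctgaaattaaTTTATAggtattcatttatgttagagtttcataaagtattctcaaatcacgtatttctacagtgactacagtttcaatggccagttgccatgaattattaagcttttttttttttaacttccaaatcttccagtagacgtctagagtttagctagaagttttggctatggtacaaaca
Omd: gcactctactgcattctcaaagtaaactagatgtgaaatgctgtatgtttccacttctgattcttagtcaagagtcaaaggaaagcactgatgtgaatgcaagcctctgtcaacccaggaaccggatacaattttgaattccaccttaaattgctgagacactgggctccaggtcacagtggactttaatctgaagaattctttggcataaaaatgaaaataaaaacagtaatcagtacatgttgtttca
Ogn: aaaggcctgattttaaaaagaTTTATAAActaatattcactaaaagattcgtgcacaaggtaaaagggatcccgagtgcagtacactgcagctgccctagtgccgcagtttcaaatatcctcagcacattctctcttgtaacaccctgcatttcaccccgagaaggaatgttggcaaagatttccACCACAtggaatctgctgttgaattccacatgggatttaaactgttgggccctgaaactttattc
Bgn: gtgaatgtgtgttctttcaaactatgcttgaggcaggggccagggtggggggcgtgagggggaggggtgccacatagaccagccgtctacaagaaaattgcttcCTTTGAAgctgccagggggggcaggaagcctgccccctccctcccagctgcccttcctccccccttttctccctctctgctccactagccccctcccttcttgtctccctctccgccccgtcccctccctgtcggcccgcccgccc
The TCF/LEF letters were found in 2 of the 8 SLRP genes with a promoter in the RefSeq table (Bgn, at -146 from the start site, and Kera), against 14.8% of 32841 promoters. RUNX letters were found in 2 (Fmod, at -38, and Ogn, at -65), against 18.6% of all promoters. TATAAA was found in Aspn (at -207 and -178) and Ogn (at -229 and -227), against 12.4%. In Ogn the matches on both strands overlap. Whether these letters act as a TATA box at such positions was not tested. The Omd window held none of these letters. The RefSeq table used here has no entry for Dcn and Lum.

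Fmod encodes fibromodulin, a class II SLRP that binds type I collagen and TGF-β. It was at 4325, 4216, and 4089 CPM in the 3 control libraries, at 120.0, 125, and 119 CPM after SB216763 treatment, and at 4.15, 5.45, and 4.63 CPM in ECs. The 3 groups were separate, with the treated osteoblasts at 2.89% of the control level. The log2 fold change between treated and control osteoblasts was -5.11 (standard error 0.08, FDR = 2.16e-17 edgeR quasi-likelihood, Benjamini-Hochberg adjusted). Per length of all annotated exons of a gene joined, Fmod ranked 21 among the genes tested in control libraries, but 1293 in treated and 10309 in EC libraries. Between treated osteoblasts and ECs the log2 fold change was 4.69 (standard error 0.08, FDR = 2.27e-17, edgeR quasi-likelihood, Benjamini-Hochberg adjusted), a 25.8-fold difference.

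Aspn encodes asporin, a class I SLRP named for its stretch of aspartate residues, which binds collagen and calcium. Its level was 638, 581, and 520.5 CPM in the controls and 48.6, 46.5, and 39.6 CPM after treatment, a decrease of 12.9-fold. In ECs it was at 0.229, 0.579, and 0.440 CPM, from 10, 19, and 19 counts. The treated level thus lay between the 2 other groups and overlapped neither. The log2 fold change between treated and control osteoblasts was -3.69 (standard error 0.09, FDR = 7.93e-15 edgeR quasi-likelihood, Benjamini-Hochberg adjusted).

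Omd encodes osteomodulin, also called osteoadherin, a keratan sulfate proteoglycan of mineralized tissue that binds osteoblasts. The control libraries held 45.8, 38.2, and 34.2 CPM, and the treated libraries 5.56, 4.90, and 4.63 CPM. ECs had 1, 4, and 1 counts of Omd, near the smallest level this depth can show. The log2 fold change was -2.98 between treated and control osteoblasts (standard error 0.11, FDR = 1.12e-12 edgeR quasi-likelihood, Benjamini-Hochberg adjusted). Pooled over libraries, the control level was 811-fold that of ECs, with an exact 95% counting interval of 373 to 2212, and the treated level 100.1-fold, with an interval of 45.7 to 274.

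Ogn encodes osteoglycin, a class III SLRP of bone and vessel wall, and is the next gene after Omd. It was at 786, 748, and 681 CPM in the controls and at 642, 608, and 554 CPM after treatment. The treated libraries were all below the controls, but by only 1.23-fold (log2 fold change -0.30, standard error 0.07, FDR = 7.40e-04 edgeR quasi-likelihood, Benjamini-Hochberg adjusted). In ECs it was at 0.802, 1.10, and 0.903 CPM, so that treated osteoblasts remained 651-fold above ECs.

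Bgn encodes biglycan, a class I SLRP with chondroitin or dermatan sulfate chains that is needed in mice for normal bone mass. Its levels were 3387, 3336, and 3238 CPM in the controls, 2801, 2893, and 2762 CPM after treatment, and 341, 338, and 347 CPM in ECs. It was the SLRP with the highest level in ECs. The decrease with SB216763 was 1.18-fold (log2 fold change -0.24, standard error 0.05, FDR = 5.31e-04 edgeR quasi-likelihood, Benjamini-Hochberg adjusted).

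Dcn encodes decorin, the class I SLRP that coats collagen fibrils and sequesters TGF-β. It was at 282, 264, and 245 CPM in the controls, at 221, 220.0, and 193 CPM after treatment, and at 0.275, 0.396, and 0.232 CPM in ECs. This was a 1.25-fold decrease with treatment (log2 fold change -0.32, standard error 0.06, FDR = 2.47e-04 edgeR quasi-likelihood, Benjamini-Hochberg adjusted). When libraries were scaled by their totals only, Dcn, Bgn, and Ogn had log2 fold changes of -0.12, -0.03, and -0.09 and did not pass an FDR of 0.01. That scaling moved the median of all genes from 0.01 to 0.22.

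Lum encodes lumican, a class II SLRP that limits fibril diameter and is known from the cornea. Of the 9 members tested it was the 1 that rose, from 58.0, 53.4, and 48.0 CPM in the controls to 92.7, 91.8, and 79.2 CPM after treatment. The increase was 1.65-fold (log2 fold change 0.72, standard error 0.07, FDR = 1.49e-07 edgeR quasi-likelihood, Benjamini-Hochberg adjusted). ECs held 6, 4, and 2 counts of Lum, and pooled over libraries the treated osteoblasts were 876-fold above ECs, with an exact 95% counting interval of 501 to 1697.

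Prelp encodes prolargin, a class II SLRP with a basic, heparin-binding end, and stands beside Fmod on chromosome 1. It went from 220.2, 192, and 203 CPM in the controls to 151, 155, and 146 CPM after treatment, against 14.9, 15.5, and 15.7 CPM in ECs. The log2 fold change with treatment was -0.45 (standard error 0.05, FDR = 8.71e-07 edgeR quasi-likelihood, Benjamini-Hochberg adjusted). An antisense gene, Gm15851, shares 9.68% of the exon bases of Prelp but had between 0 and 4 counts in every library. Whether counting used strand is not given, and without strand the reads of both could not be told apart over the shared bases.

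Podn encodes podocan, a class V SLRP that binds type I collagen. It was low, at 11.7, 10.5, and 12.2 CPM in the controls, 3.35, 3.10, and 3.10 CPM after treatment, and 0.435, 0.670, and 0.394 CPM in ECs. The decrease of 3.59-fold with treatment was just short of the 4-fold cutoff (log2 fold change -1.84, standard error 0.10, FDR = 1.05e-10 edgeR quasi-likelihood, Benjamini-Hochberg adjusted). Kera, which encodes the corneal proteoglycan keratocan, had between 0 and 2 counts in each of the 9 libraries, below what this depth can show.

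Neighboring genes did not move by the same amount. Ratios between members were taken within each library, so that they do not depend on the scaling, and are given per length as geometric means. Fmod was 22.4 times Prelp in the controls and 0.882 times Prelp after treatment. Aspn was 0.854 times Ogn in the controls and 0.0812 times Ogn after treatment, and Omd went from 0.0605 to 0.00953 times Ogn. The neighbors Aspn and Omd both fell strongly, and Aspn went from 14.1 to 8.52 times Omd. Lum went from 0.480 to 0.991 times Dcn. In each of these pairs the 3 treated libraries lay apart from the 3 controls (2-sided exact permutation test, p = 0.1, the smallest that 3 libraries against 3 can give, or 0.133 after Benjamini-Hochberg adjustment over the 8 pairs compared). The ratio of Bgn to Dcn was 12.1 in the controls and 12.8 after treatment, and that of Ogn to Dcn was 6.36 and 6.47 (p = 0.4 for both from the same exact test, or 0.4 after adjustment).

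**Figure D2:**
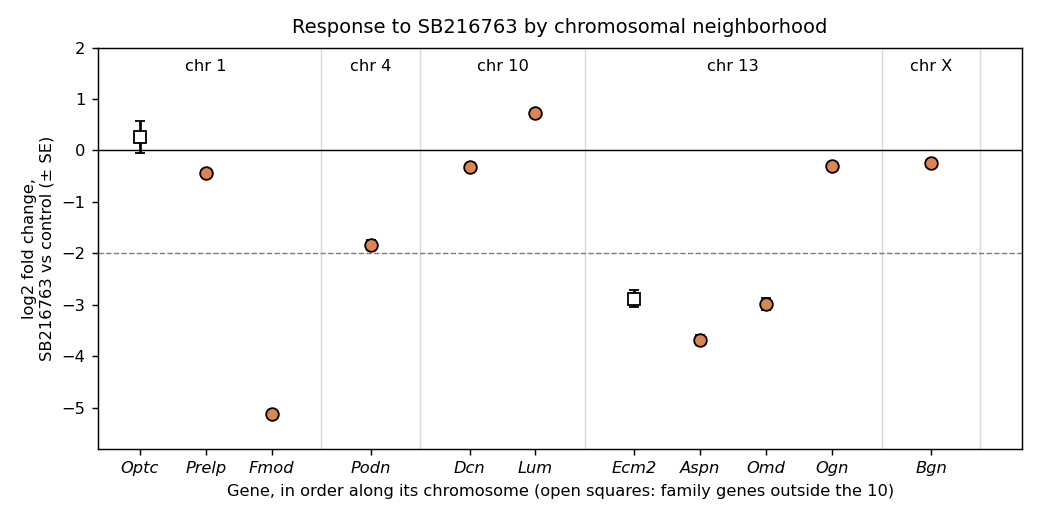
Log2 fold change of SB216763-treated against control osteoblasts (error bars, standard error) for SLRP genes in their order along each chromosome. Circles are the 9 members tested, open squares the family genes Optc and Ecm2, and the dashed line a 4-fold decrease. Fmod at -5.11 stands beside Prelp at -0.45, and Ogn at -0.30 beside Omd at -2.98.

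The row on chromosome 13 starts with Ecm2, a related gene outside the 10, and Ecm2, Aspn, Omd, and Ogn all lie inside the span of Cenpp (49464023 to 49652785) on the opposite strand. Cenpp encodes a centromere protein. Its exons share 7 bases with those of Aspn and 0 with those of Omd and Ogn. Ecm2 went from 5.85 ± 0.611 to 0.804 ± 0.202 CPM (SD, n = 3). On the log2 scale this was a difference of -2.88, and that of Cenpp was -2.85.

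The make-up of the family changed with treatment. Members are compared here per length, as RPKM from TMM-scaled counts. The length is that of all exons of a gene joined in GENCODE M21, which may differ from the annotation used for counting. It covers every annotated transcript of a gene, 6099 bases for Bgn and 3306 for Fmod. Shares, orders, and ratios between members depend on it, and the length of the transcripts expressed was not measured. In the controls, Fmod accounted for 51.0% ± 0.686 of the family, Bgn for 21.8% ± 0.415, Ogn for 11.5% ± 0.366, and Aspn for 9.85% ± 0.590 (SD, n = 3). After treatment, Bgn accounted for 53.2% ± 1.39, Ogn for 26.9% ± 1.13, and Fmod for 4.23% ± 0.131. In ECs, Bgn alone made up 89.7% ± 0.711 and Prelp 6.80% ± 0.114. Of all counts, the 10 genes together took 0.873% ± 0.0279 in control libraries, 0.431% ± 0.00949 in treated libraries, and 0.0368% ± 3.51e-04 in EC libraries. Fmod alone took 0.390% in control and 0.0130% in treated libraries, and without it the other 9 genes took 0.483%, 0.419%, and 0.0363% in these groups.

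**Figure D3:**
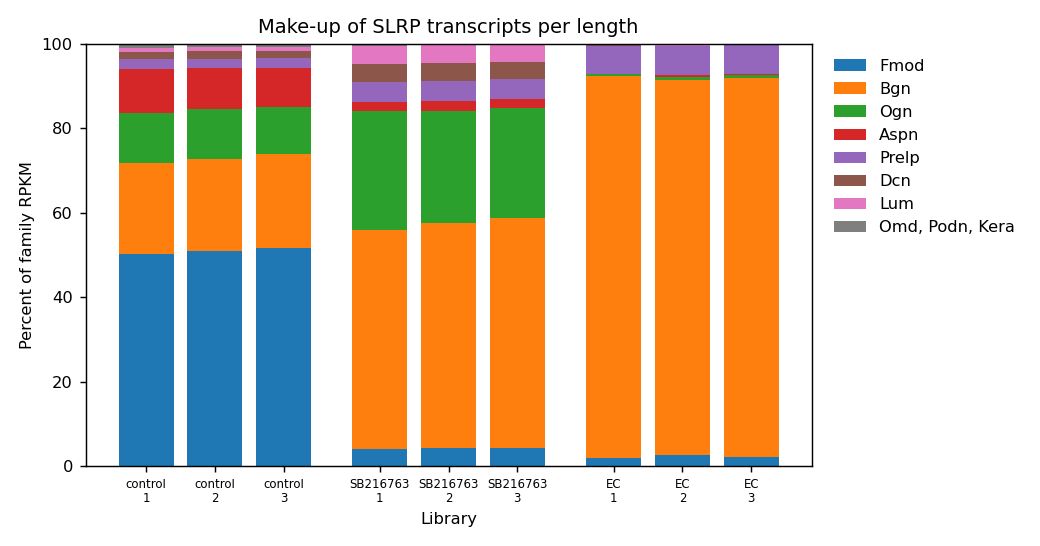
Percent of the summed RPKM of the 10 SLRP genes taken by each gene, with one stacked bar for each of the 9 libraries. The Fmod part is near 51.0% in each control bar and near 4.23% in each SB216763 bar, and the Bgn part fills 89.7% of the EC bars on average.

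By mean RPKM, the order in the controls was Fmod (1273), Bgn (544), Ogn (288), Aspn (246), Prelp (56.8), Dcn (45.2), Lum (21.7), Omd (17.5), Podn (2.69), and Kera. In this order, the libraries of Ogn and Aspn overlapped, as did those of Lum and Omd. After treatment the order was Bgn (462), Ogn (234), Prelp (41.7), Fmod (36.8), Dcn (36.2), Lum (35.9), Aspn (19.1), Omd (2.24), Podn (0.746), and Kera. Here Fmod and Dcn, and also Dcn and Lum, overlapped. In ECs it was Bgn (56.1), Prelp (4.25), Fmod (1.43), Ogn (0.364), Aspn (0.177), and Podn (0.117), where Aspn and Podn overlapped, and Dcn, Lum, and Omd were at or below 0.0515 RPKM with overlapping libraries. Among all genes tested, Bgn ranked 66 in control, 50 in treated, and 807 in EC libraries.

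The control osteoblasts were above the ECs by at least 4-fold in each of the 9 genes tested, against 9.87% of all genes, and in 0 of 9 were they lower by as much, against 13.5%. The treated osteoblasts were higher than ECs by that rule in 9 of 9, against 10.3%, and lower in 0, against 15.0%. At an FDR under 0.01 alone, 9 were higher and 0 lower in the controls (37.9% and 39.0% of all genes), and 9 were higher and 0 lower in the treated osteoblasts (38.3% and 40.3%). The libraries did not overlap for 9 of 9 in either comparison, as for 84.0% of all genes between controls and ECs and 85.4% between treated osteoblasts and ECs. Both comparisons share the EC libraries, and genes near 0 in ECs passed the filter through the osteoblast libraries. The log2 fold changes between control osteoblasts and ECs were 10.48 for Aspn, 9.80 for Fmod, 9.80 for Dcn, 9.64 for Ogn, 9.54 for Omd, and 9.01 for Lum. They were smaller for Podn, at 4.55, Prelp, at 3.74, and Bgn, at 3.28. Between treated osteoblasts and ECs they were 6.79 for Aspn and 6.56 for Omd, while Lum stood at 9.73, Dcn at 9.48, and Ogn at 9.35. The values of Omd rest on 6 EC counts, 4 of them in EC replicate 2, and without that library they were 10.58 against the controls and 7.60 against the treated osteoblasts. With a prior count of 2 they were 8.66 and 5.69. In the fit used for the other values here, the FDR was at most 4.06e-10 for the 9 genes in both comparisons (edgeR quasi-likelihood, Benjamini-Hochberg adjusted).

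Of the 7 other genes of the family, 5 were tested and 1, Ecm2, was at least 4-fold lower after treatment, against 5.84% of all genes. Podnl1, the podocan-like gene, went from 16.6 ± 1.24 to 4.90 ± 0.592 CPM (log2 fold change -1.76), and Tsku, which encodes the secreted BMP and Wnt modulator tsukushi, from 38.6 ± 0.404 to 54.6 ± 3.68 CPM (log2 fold change 0.50; SD, n = 3). Optc and Nyx were at or below 1.22 CPM in every library, with log2 fold changes of 0.26 and -0.55 (FDR = 0.461 and 0.295 edgeR quasi-likelihood, Benjamini-Hochberg adjusted). Chad and Epyc did not pass the filter on low counts.

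Fibrillar collagens, the main ligands of SLRPs, had a median log2 fold change of -1.78 after treatment, against 0.01 for all genes tested. At least 4-fold lower were 4 of 9, against 5.84% of all genes. Col3a1 went from 5198 ± 372 to 532 ± 16.1 CPM (SD, n = 3). The log2 fold change was -3.17 for Col1a1, -2.52 for Col5a2, and -2.39 for Col1a2. Col2a1 and Col11a2 were higher at an FDR under 0.01, by 0.53 and 1.37 on the log2 scale.

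Enzymes that build chondroitin and dermatan sulfate chains were lower for 4 and higher for 11 of the 19 tested at an FDR under 0.01. Of all genes tested, 32.0% were lower and 32.9% higher by that rule. At least 4-fold higher were 3 of the 19, against 3.81% of all genes. Csgalnact1, which starts the chondroitin chain, was at 0.135 ± 0.0352 CPM in the controls and at 13.1 ± 0.146 CPM in the treated libraries, while ECs held 35.6 ± 0.620 CPM (SD, n = 3). The sulfotransferase genes Chst11 and Chst15 rose by 2.28 and 2.24 on the log2 scale. They reached 116 and 233 CPM, against 96.0 and 2.57 CPM in ECs. Dse, the dermatan sulfate epimerase gene, fell by 0.69 on the log2 scale. Of 8 genes for keratan sulfate synthesis and tyrosine sulfation that were tested, 2 were at least 4-fold higher, against 3.81% of all genes. They were the galactosyltransferase gene B4galt4 (log2 fold change 2.92) and the sulfotransferase gene Chst2 (2.88). After treatment B4galt4 was at 16.7 CPM and Chst2 at 140 CPM, against 24.0 and 28.8 CPM in ECs. The tyrosine sulfation genes Tpst1 and Tpst2 fell by 0.45 and 0.57 on the log2 scale. Medians were 0.30 and 0.24 on the log2 scale for these lists.

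The list of proteases that process SLRPs, which also holds cofactors of procollagen cleavage, went in both directions. At least 4-fold lower were 3 of 10 genes, and 2 were at least 4-fold higher, against 5.84% and 3.81% of all genes tested. The median log2 fold change was 0.04. Bmp1, which removes the propeptide of biglycan, went from 141 ± 2.41 to 163 ± 11.3 CPM, a log2 fold change of 0.21 (SD, n = 3). The collagenase gene Mmp13 rose from 10.7 ± 0.506 to 601 ± 18.6 CPM, and Mmp14 from 581 ± 20.6 to 2661 ± 105 CPM. The Bmp1 relative Tll1 was at 1.64 ± 0.163 CPM in the controls and had 3, 1, and 2 counts after treatment. Pcolce2, a cofactor gene for procollagen cleavage, was at 14.6 ± 0.273 CPM in the controls and had 1, 4, and 1 counts after treatment. The aggrecanase gene Adamts5 had a log2 fold change of -2.73.

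Among 17 ligands, receptors, and other binding partners of SLRPs, 2 were at least 4-fold lower after treatment and 0 at least 4-fold higher. The shares of all genes tested were 5.84% and 3.81%. The median log2 fold change of the list was -0.09. At an FDR under 0.01, 5 were lower and 5 higher, against 32.0% and 32.9% of all genes. Bmp4, a ligand that biglycan binds, went from 158 ± 10.3 to 8.15 ± 0.760 CPM, and Ccn4, which encodes a matrix protein that binds decorin and biglycan, from 223 ± 2.30 to 33.8 ± 1.63 CPM (SD, n = 3). The genes that rose were the endocytic receptor gene Lrp1 (log2 fold change 1.83), the TGF-β receptor genes Tgfbr3 (1.77) and Tgfbr1 (0.54), and the Toll-like receptor genes Tlr4 (1.42) and Tlr2 (0.39), of which TLR2 and TLR4 are receptors for soluble biglycan. Lrp1 varied widely between libraries, at 324 ± 120 CPM in the controls and 1150 ± 247 CPM after treatment (standard error of the log2 fold change 0.21). Tgfb2, Tgfb3, and Tgfbr2 fell by 1.79, 0.70, and 0.44 on the log2 scale. Tgfb1 was at 98.2 ± 2.76 CPM in the controls and 105 ± 6.36 CPM after treatment (log2 fold change 0.10, FDR = 0.0977 edgeR quasi-likelihood, Benjamini-Hochberg adjusted).

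**Figure D4:**
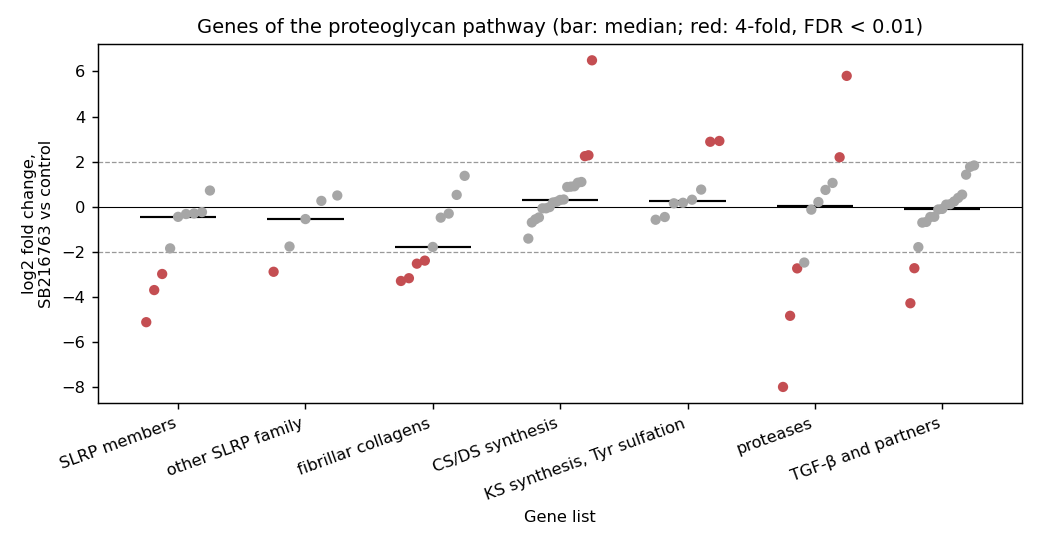
Log2 fold change of SB216763-treated against control osteoblasts for each tested gene of the SLRP family and of the lists of collagens, chain-building enzymes, proteases, and binding partners, with one point per gene and a bar at the median of the list. Red points passed the 4-fold cutoff at an FDR under 0.01, which 3 SLRP members and 4 collagens did on the lower side and 3 chondroitin sulfate enzymes on the higher side.

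Genes outside the family with the pattern nearest to each member were found by the root mean square difference of gene-centered log2 CPM over the 9 libraries. The nearest to Aspn was Ibsp, which encodes bone sialoprotein (0.0857), and the nearest to Fmod was Hapln1, a link protein gene (0.202). Zfp469 was nearest to Omd (0.296), Rcn3 to Dcn (0.129), Scara3 to Ogn (0.105), En1 to Lum (0.240), and Ckmt1 to Podn (0.0973). For Bgn it was Sdc2, which encodes the proteoglycan syndecan 2 (0.0684), and for Prelp it was Ak4 (0.0922). The nearest gene need not share the size of the response to treatment. On the log2 scale En1 changed by 0.24 and Lum by 0.72, whereas Ibsp and Aspn changed by -3.74 and -3.69. Log2 CPM used a prior count of 2, which shrinks differences between genes near 0 in ECs. In the fit, the log2 fold change between controls and ECs was 11.27 for Ibsp and 10.48 for Aspn. It was 11.40 for Hapln1 and 9.80 for Fmod.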

How the data were processed

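RNA-Seq libraries came from MC3T3 osteoblasts, without and with SB216763, and from pulmonary ECs of mice (n = 3 each). Read alignment and gene counts were made by the authors with STAR, and the deposited values are whole-number counts, not normalized. The submitters' processing notes list STAR 2.5.3a and GRCm38. The annotation release and the strand setting are not given in the sources used here. Groups were taken from the sample titles, since the treatment protocol text is the same for every sample. Ensembl identifiers were matched without their version, and 50376 of 50686 had a symbol and an exon length in GENCODE M21.

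Counts were analyzed in R 4.3.3 with edgeR 4.0.16 (filterByExpr, TMM, 1 quasi-likelihood fit of all 9 libraries, prior count of 0.125 for log2 fold changes). The standard error of a log2 fold change is its size divided by the square root of F. P-values were adjusted over all 15531 genes tested. The biological coefficient of variation was 0.0554, 1 value for all groups. Chi-square per gene between replicate counts, which grows with depth, was 29.1 to 115 for control pairs. It was 3.35 to 29.1 for treated pairs and 3.01 to 4.88 for EC pairs. Depth ran from 30990107 to 68946333 counts, and intervals cover counting error only. Log2 CPM used a prior count of 2.

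All 10 genes are described. From each list, at most 3 genes past 4-fold at an FDR under 0.01 with at least 10 CPM in 1 group were named, together with Col1a1, Col1a2, Tgfb1, Bmp1, and the other SLRP genes. Col2a1, Col11a2, Dse, Tpst1, Tpst2, Mmp14, Adamts5, Lrp1, and the TGF-β ligands and receptors and Toll-like receptors other than Tgfb1 were named after their values were seen, as were single marker genes. Members and lists were chosen with earlier results of these data known.

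The alternatives comprised DESeq2 1.42.0, limma-voom from limma 3.58.1, other scalings and filters, fits of 2 groups, other thresholds and prior counts, a replicate block, and leaving out each library. On simulated counts for treated against control osteoblasts, 200 genes were given a log2 difference of 3, and edgeR called 200 of them and 0 others among the 13806 genes run. All genes were drawn with the same coefficient of variation, 0.0554, and the others with no difference. This checks that the code runs as meant and cannot show error rates in the real libraries.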

Additional observations from a re-analysis of the deposited data

How the results depend on the processing

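Directions held for each of the 9 tested genes in each comparison and under each alternative run, and the count of genes at least 4-fold lower after treatment stayed within 1.5 times. Scaling by library size only changed one count, with 5 genes in place of 8 lower after treatment at an FDR under 0.01, since Dcn, Bgn, and Ogn no longer passed. Tested against a log2 fold change of 1, the changes of Dcn, Bgn, Ogn, Prelp, and Lum did not pass. Without Fmod, the 9 other genes took 0.483% of counts in control, 0.419% in treated, and 0.0363% in EC libraries. A fit with a replicate block had 3 genes at least 4-fold lower, 8 lower at an FDR under 0.01, and 1 higher, and the block changed no call. Deviations of same-numbered libraries had correlations between -0.0392 and 0.123. These cannot show whether such libraries shared a culture or a preparation, which the sources do not state. Few EC counts limit the folds of Omd and Lum. Over the alternatives, their log2 fold changes ranged from 8.66 to 10.58 and from 8.50 to 9.34 between controls and ECs, and from 5.69 to 7.60 and from 9.21 to 10.06 between treated osteoblasts and ECs.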
